A study of Mus musculus with 10 samples.

Results

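The genes described here are 40 targets of the transcription factor NRF2 and enzymes of antioxidant defence. They were taken by their symbols, and all 40 were found among the 22891 genes of the deposited table and passed the filter on low values that left 15629 genes. RNA came from whole ovaries of mice 3 weeks old that received no hormone stimulation, of the strain given as C57/Bl6/N;129SvEv7. There were 5 libraries labelled Uba3 cKO and 5 labelled control. UBA3 is the catalytic part of the NEDD8-activating enzyme, and the labels name neither the Cre driver, the deleted exons nor the control genotype. The deposited values are log2 levels normalized between libraries, with library medians between 6.29 and 6.44. The number of reads behind them is unknown.

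NRF2, the product of Nfe2l2, is held at low levels in resting cells by KEAP1, which delivers it to a ubiquitin ligase built on cullin 3 and RBX1. Cullin ligases of this kind are activated when NEDD8 is attached to the cullin. When oxidants or electrophiles modify KEAP1, NRF2 accumulates, pairs with small MAF proteins and binds antioxidant response elements beside genes for glutathione synthesis, quinone reduction, heme breakdown and thioredoxin recycling. In growing follicles these enzymes, with superoxide dismutases, catalase and the glutathione peroxidases, take part in the defence against oxidants made by respiration and steroid synthesis.

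Uba3 itself had levels of 10.12, 10.13, 10.12, 10.03 and 10.22 in Uba3 cKO replicates 1 to 5, against 10.17, 10.09, 9.88, 10.37 and 10.09 in control replicates 1 to 5. The groups overlapped and the log2 difference was 0.0032 (exact two-sided permutation test, p = 1), so a gene-level value in the whole organ did not check the labels. Oocyte markers lay between 8.96 and 9.75 in Uba3 cKO libraries and between 9.17 and 9.81 in control libraries, so these were present in every library. Granulosa markers lay between 12.58 and 12.86 in Uba3 cKO libraries and between 12.64 and 12.81 in control libraries. In bulk tissue, fewer cells of a type and less RNA per cell cannot be told apart. Control replicate 3 stood apart in transcript length. For each library, the deviations of well-expressed genes (mean level 8 or more) from their own means were regressed on the log2 of transcript length. This length slope was -0.17 in control replicate 3, where short transcripts were relatively high, and lay between -0.0725 and 0.0692 in the other libraries. Markers of erythrocytes ranged from 6.96 to 7.70 in Uba3 cKO libraries and from 6.91 to 8.55 in control libraries. Those of macrophages and leukocytes ranged from 5.33 to 5.61 in Uba3 cKO libraries and from 5.34 to 5.76 in control libraries. Of the adipocyte markers, Adipoq, Cidec and Retn were below the filter. The 3 that passed it lay between 4.90 and 6.29 in Uba3 cKO libraries and between 4.95 and 5.46 in control libraries.

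None of the 40 genes passed the test between ovaries labelled Uba3 cKO and control ovaries after adjustment over all genes. By limma with Benjamini-Hochberg adjustment 0 of 40 were called, where 0% of all tested genes were called (0 of 15629). At an unadjusted p under 0.05 the count was 0 of 40, where 1.79% of all genes passed. The groups did not overlap in 0 of 40 genes, where they did not overlap in 0.320% of all genes. The mean was higher under the Uba3 cKO label for 16 genes and lower for 24. The median difference was -0.0094 log2 units over the 40 genes and 0.00034 over all genes tested. Without control replicate 3, 24 genes had the higher mean in Uba3 cKO ovaries and the median was 0.023, and with library quality weights 22 genes did and the median was 0.011. The 95% interval stayed inside 0.5 log2 units on either side of 0 for 38 of the 40 genes, where this held for 94.9% of all genes. It lay within 0.25 log2 units for 21 of the 40 (52.5%), where this held for 51.2% of all genes. The exceptions at 0.5 were Gpx1 and Gpx3. Of the 40 genes, 34 had a mean level of 8 or more. Among all tested genes at that level, the interval lay within 0.5 log2 units for 96.2% and within 0.25 for 60.1%. Nothing in the labels says that the ovaries of a group came from separate mice, so these p-values measure the spread between the samples given.

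**Figure D1:**
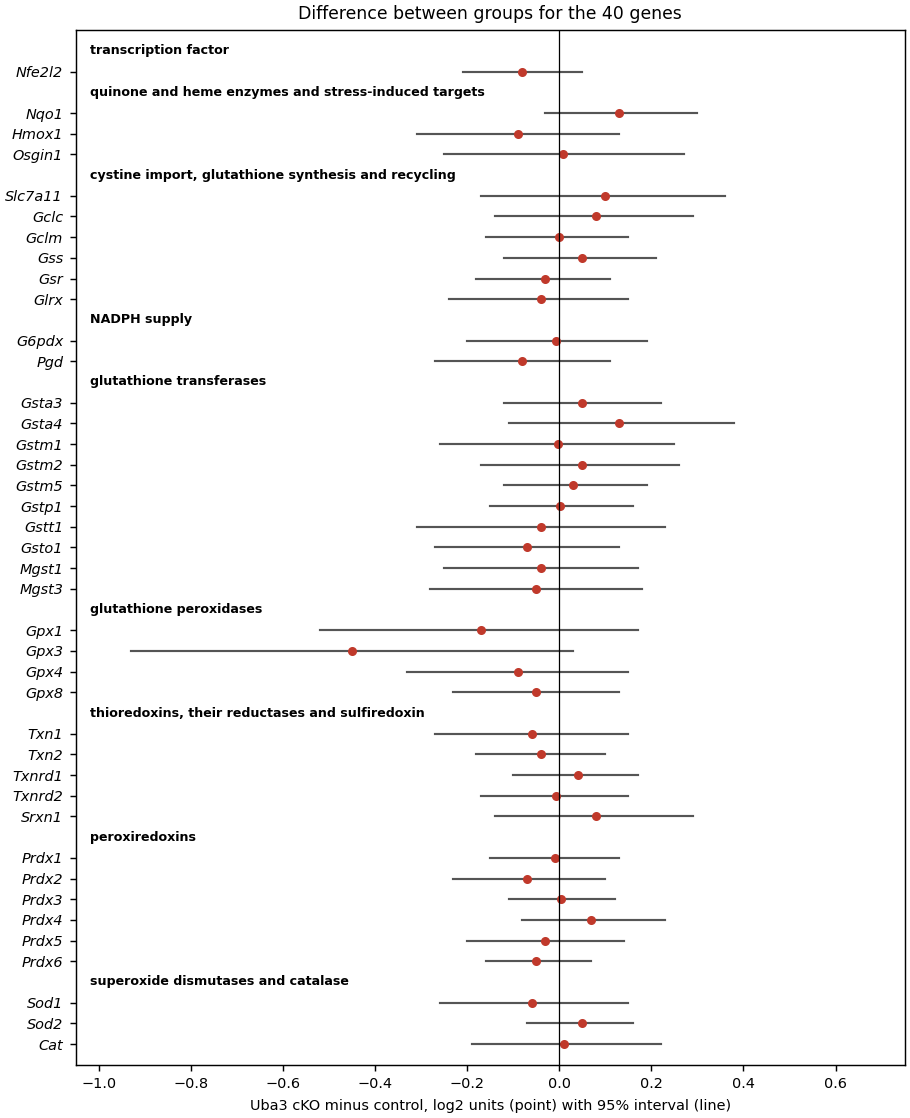
Log2 difference of the Uba3 cKO mean from the control mean (x axis) for each of the 40 genes, grouped by role, with the 95% interval from limma as a line. Every interval includes 0, and Gpx3 has the largest difference of the 40, at -0.45, and the widest interval.

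Nfe2l2, the transcription factor, was well expressed in all libraries. Its levels were 10.78, 10.81, 10.80, 10.78 and 10.70 in Uba3 cKO replicates 1 to 5, against 10.74, 10.76, 10.88, 10.90 and 10.99 in control replicates 1 to 5. All Uba3 cKO values lay within a narrow band, and the 3 highest values were those of control replicates 3, 4 and 5. The groups overlapped, with means of 10.77 ± 0.044 in Uba3 cKO and 10.85 ± 0.10 in control ovaries (SD, n = 5 each) and a log2 difference of -0.08 (standard error 0.060, limma adjusted p = 1). The 95% interval bounds the fold between 0.866 and 1.03. Since NRF2 is controlled mainly through the stability of the protein, its mRNA level does not report its activity.

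The genes best known to respond to NRF2 were spread over a wide range of levels and had overlapping groups. Nqo1, which reduces quinones, was at 5.51, 5.72, 5.58, 5.74 and 5.61 in Uba3 cKO replicates 1 to 5, against 5.62, 5.43, 5.50, 5.48 and 5.46 in control replicates 1 to 5. All Uba3 cKO values were above control replicates 2 to 5, and the overlap came from control replicate 1. The log2 difference of 0.13 (standard error 0.075, unadjusted p = 0.0991, adjusted p = 1 by limma) was the second smallest p of the 40 genes. The median SD over libraries was 0.085 for genes with means from 2 to 4, 0.153 from 4 to 6, 0.174 from 6 to 8, 0.132 from 8 to 10, 0.12 from 10 to 12 and 0.142 above 12. The lowest genes thus varied least, and whether the deposited scale compresses differences at the level of Nqo1 was not tested.

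Hmox1, the inducible enzyme of heme breakdown, was at 7.93, 8.21, 7.96, 8.17 and 7.96 in Uba3 cKO replicates 1 to 5, against 8.22, 8.10, 8.41, 7.98 and 7.96 in control replicates 1 to 5. Uba3 cKO replicate 1 lay below every control library and the groups overlapped otherwise, and the highest value was that of control replicate 3 (log2 difference -0.09, standard error 0.10). Osgin1, a stress-induced growth inhibitor, was at 6.12, 6.20, 5.86, 6.18 and 5.72 in Uba3 cKO replicates 1 to 5, against 5.95, 6.12, 6.28, 5.85 and 5.82 in control replicates 1 to 5. Its means were 6.01 ± 0.21 in Uba3 cKO and 6.01 ± 0.20 in control ovaries (SD, n = 5 each), with the variation inside the groups.

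**Figure D2:**
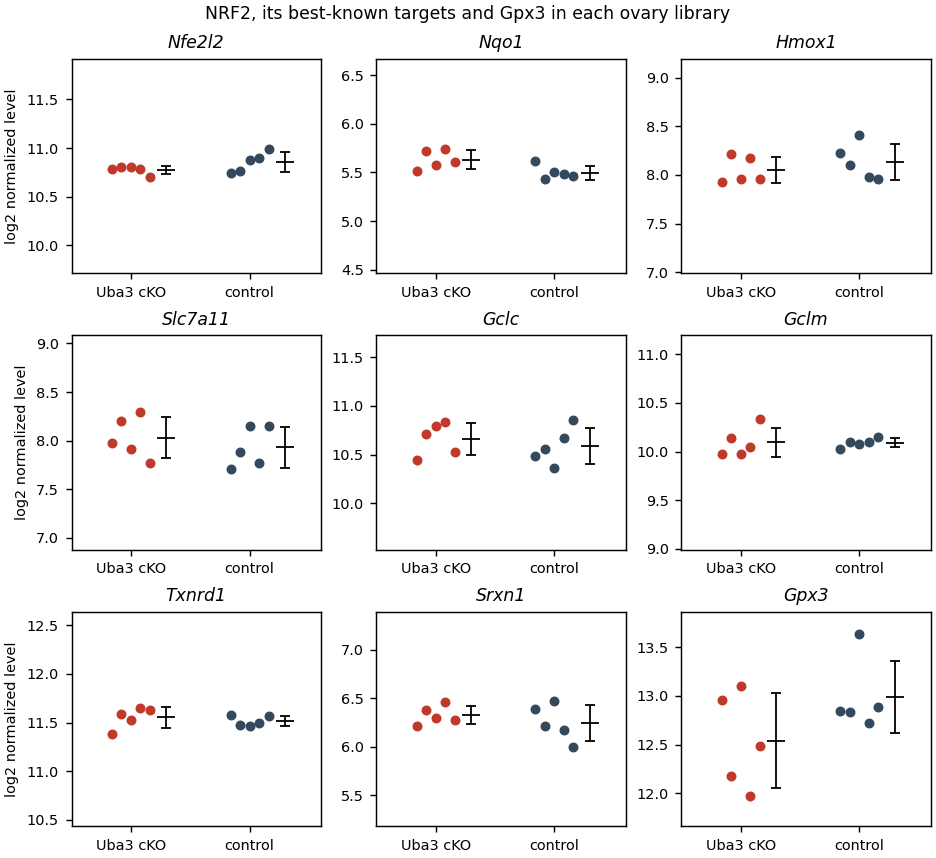
Log2 normalized level (y axis) of Nfe2l2, 7 targets and Gpx3 in each library, with Uba3 cKO points left of control points and the mean ± SD of 5 libraries as a bar. The y axes all span the same number of log2 units. The groups overlap in every panel, and Gpx3 has the widest spread of the 9, with its low point of 11.97 in Uba3 cKO replicate 4 and its high point of 13.64 in control replicate 3.

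The promoters of the 40 genes were searched for the element that NRF2 and small MAF proteins bind, through which NRF2 is known to act. Windows of 250 bases before to 50 bases after the transcription start were taken from RefSeq for build GRCm38.p6 and matched 35 of the 40 genes by symbol. Gclc, Gsr, Gsta4, Hmox1 and Prdx6 were not matched. The general core TGACNNNGC, on either strand, was in 11 of the 35 genes, and in 14.0% of all 27025 genes with a window. A second form, TGANTCAGC, was also searched on either strand. It shares TGACTCAGC with the general core but is not a subset of it, and Gstp1 and Osgin1 held this form without the general core. The second form was in 4 of the 35 genes, and in 1.37% of all genes. These 4 were Gstp1, Osgin1, Prdx1 and Srxn1, and the 150 bases before their starts are given here on the gene's own strand with the 9 bases of the match in capitals.
Srxn1 (chr2:152105374-152105523, plus strand): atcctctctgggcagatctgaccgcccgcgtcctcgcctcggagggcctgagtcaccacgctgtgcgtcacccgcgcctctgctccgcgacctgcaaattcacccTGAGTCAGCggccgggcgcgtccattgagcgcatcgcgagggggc
Prdx1 (chr4:116685449-116685598, plus strand): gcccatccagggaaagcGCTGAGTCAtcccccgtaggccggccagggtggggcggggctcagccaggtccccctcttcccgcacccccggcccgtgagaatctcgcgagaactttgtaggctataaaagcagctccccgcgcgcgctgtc
Osgin1 (chr8:119436997-119437146, plus strand): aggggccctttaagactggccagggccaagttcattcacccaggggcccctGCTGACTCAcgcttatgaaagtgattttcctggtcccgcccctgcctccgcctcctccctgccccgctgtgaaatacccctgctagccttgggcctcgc
Gstp1 (chr19:4037913-4038062, minus strand): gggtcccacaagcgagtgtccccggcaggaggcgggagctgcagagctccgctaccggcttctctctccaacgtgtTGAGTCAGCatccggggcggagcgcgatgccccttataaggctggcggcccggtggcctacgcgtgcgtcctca
Relative to the transcription start the match began at position -45 in Srxn1, -133 in Prdx1, -99 in Osgin1 and -74 in Gstp1, and it read TGAGTCAGC on the gene's own strand in Srxn1 and Gstp1. In Prdx1 and Osgin1 it lay on the opposite strand, as TGACTCAGC and TGAGTCAGC.

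Genes with the form TGANTCAGC did not stand apart in the comparison. Srxn1, sulfiredoxin, which restores overoxidized peroxiredoxins, was at 6.21, 6.38, 6.3, 6.46 and 6.28 in Uba3 cKO replicates 1 to 5, against 6.39, 6.21, 6.47, 6.17 and 6.0 in control replicates 1 to 5. Its log2 difference was 0.08 (standard error 0.10). The other differences were -0.01 for Prdx1, 0.0077 for Osgin1 and 0.0026 for Gstp1, so the median over the 4 genes was 0.0052, where the median over the 31 other genes with a window was -0.030. A match of letters describes the window and does not show binding.

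Cystine import and glutathione synthesis were represented by 6 genes, 3 with the higher and 3 with the lower mean in Uba3 cKO ovaries. Slc7a11, the exchanger that brings in cystine, was at 7.98, 8.20, 7.91, 8.29 and 7.77 in Uba3 cKO replicates 1 to 5, against 7.71, 7.88, 8.15, 7.77 and 8.15 in control replicates 1 to 5. High and low libraries occurred in both groups, and the log2 difference was 0.10 (standard error 0.12). Gclc, the catalytic subunit of the enzyme that makes gamma-glutamylcysteine, was at 10.44, 10.71, 10.79, 10.83 and 10.53 in Uba3 cKO replicates 1 to 5, against 10.49, 10.56, 10.36, 10.67 and 10.86 in control replicates 1 to 5. Its lowest value was that of control replicate 3, the library with relatively high short transcripts, and its log2 difference was 0.08 (standard error 0.10).

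Gclm, the modifier subunit of the same enzyme, was the closest of all 40 genes, with a log2 difference of -0.0016 (standard error 0.071). It was at 9.98, 10.14, 9.97, 10.05 and 10.33 in Uba3 cKO replicates 1 to 5, against 10.03, 10.10, 10.08, 10.10 and 10.15 in control replicates 1 to 5, so that the Uba3 cKO values enclosed the control values. Glutathione synthetase, Gss, averaged 8.37 ± 0.090 in Uba3 cKO and 8.32 ± 0.11 in control ovaries (SD, n = 5 each). Glutathione reductase, Gsr, averaged 10.24 ± 0.13 in Uba3 cKO and 10.27 ± 0.062 in control ovaries. Glutaredoxin, Glrx, averaged 8.67 ± 0.092 in Uba3 cKO and 8.71 ± 0.18 in control ovaries. The differences of these last 3 genes were smaller than the SD of at least 1 of their groups.

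The oxidative enzymes of the pentose phosphate pathway supply the NADPH that these reductions use. Pgd was at 11.78, 11.58, 11.87, 11.37 and 11.70 in Uba3 cKO replicates 1 to 5, against 11.75, 11.63, 11.86, 11.74 and 11.71 in control replicates 1 to 5. Its lowest library was Uba3 cKO replicate 4, without which the log2 difference of -0.08 (standard error 0.087) was -0.0086. Without Uba3 cKO replicate 3 it was -0.13. G6pdx, the first enzyme of the pathway, averaged 10.59 ± 0.19 in Uba3 cKO and 10.60 ± 0.12 in control ovaries (SD, n = 5 each).

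G6pdx followed the oocyte markers from library to library. Over the 10 libraries Pearson's r was 0.96 (permutation p = 0.00017, Benjamini-Hochberg adjusted p = 0.0272) and Spearman's rho was 0.84 (permutation p = 0.00382, adjusted p = 0.192). Without the 2 libraries farthest from the median oocyte level, Uba3 cKO replicate 5 and control replicate 1, r was 0.94. G6pdx was lowest, at 10.33, in Uba3 cKO replicate 5, where the oocyte level was also lowest, at 8.96. It was highest, at 10.76, in control replicate 3, where the oocyte level was highest, at 9.81. Gstm2 had an r of 0.88 with the same markers (permutation p = 0.00066, adjusted p = 0.0422), a rho of 0.87 (permutation p = 0.00239, adjusted p = 0.192) and an r of 0.83 without the same 2 libraries. Osgin1 had an r of 0.89 with them (permutation p = 0.00244), which did not pass (adjusted p = 0.0781). With endothelium markers r was 0.69 for G6pdx (permutation p = 0.0295, adjusted p = 0.305) and 0.67 for Gstm2 (permutation p = 0.0363, adjusted p = 0.325). The relations were thus not limited to oocyte markers before adjustment. These relations belong to a family of 320, each of the 40 genes with 7 marker levels and the length slope, of which 5 passed an adjusted p of 0.05 for r, and 0 for rho (41 passed for r unadjusted). The points share the normalization of the table, and the oocyte level left a gap between 9.21 and 9.64 that only control replicate 5, at 9.47, filled.

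**Figure D3:**
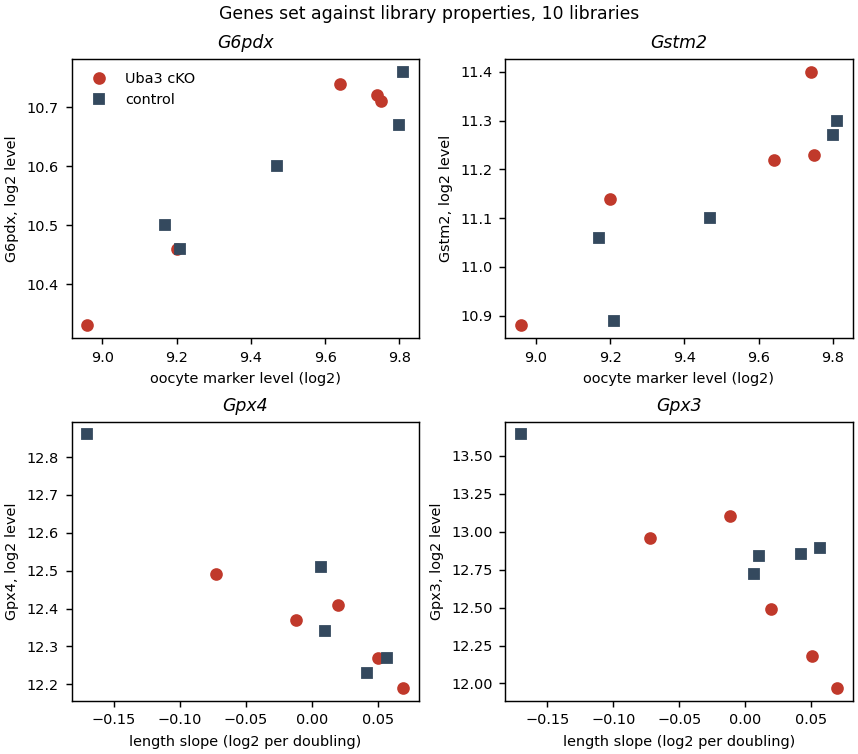
Log2 level (y axes) of G6pdx and Gstm2 against the mean log2 level of oocyte markers, and of Gpx4 and Gpx3 against the slope of each library on transcript length, with 1 point per library. G6pdx and Gstm2 are higher where oocyte markers are higher in both groups. Gpx4 and Gpx3 are highest in control replicate 3, at a slope of -0.17.

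Glutathione transferases conjugate glutathione to electrophiles, and of 10 genes 5 had the higher and 5 the lower mean in Uba3 cKO ovaries, with differences between -0.07 and 0.13. Gsta4, which acts on the lipid aldehyde 4-hydroxynonenal, was at 8.57, 8.88, 8.80, 9.16 and 8.84 in Uba3 cKO replicates 1 to 5, against 8.69, 9.01, 8.57, 8.69 and 8.61 in control replicates 1 to 5. The highest value was that of Uba3 cKO replicate 4, while Uba3 cKO replicate 1 and control replicate 3 were the lowest. The log2 difference was 0.13 (standard error 0.11). It was 0.06 without Uba3 cKO replicate 4 and 0.21 without Uba3 cKO replicate 1.

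Gstt1, a theta-class transferase, had the widest range of the transferases. It was at 8.73, 8.57, 8.66, 8.43 and 8.40 in Uba3 cKO replicates 1 to 5, against 8.85, 8.43, 8.95, 8.50 and 8.27 in control replicates 1 to 5. Its control values enclosed all Uba3 cKO values. Mgst1, a membrane-bound enzyme that also reduces lipid peroxides, had the highest level of the transferases before correction for length. It was at 11.65, 11.23, 11.71, 11.28 and 11.54 in Uba3 cKO replicates 1 to 5, against 11.60, 11.34, 11.64, 11.48 and 11.54 in control replicates 1 to 5. Uba3 cKO replicates 2 and 4 were its lowest libraries, and these had the highest stroma markers of all libraries, at 10.38 and 10.41. Over the 10 libraries Mgst1 had an r of -0.54 with the stroma markers (permutation p = 0.107, adjusted p = 0.463), and -0.03 without these 2. The part of stroma in the low values was not tested.

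The other transferases had overlapping groups too. The mu-class genes averaged 10.96 ± 0.20 in Uba3 cKO and 10.97 ± 0.23 in control ovaries (SD, n = 5 each) for Gstm1, 11.17 ± 0.19 in Uba3 cKO and 11.13 ± 0.17 in control ovaries for Gstm2, and 9.97 ± 0.14 in Uba3 cKO and 9.94 ± 0.080 in control ovaries for Gstm5. Gstp1 averaged 10.52 ± 0.037 in Uba3 cKO and 10.51 ± 0.15 in control ovaries, and Gsto1 9.51 ± 0.20 in Uba3 cKO and 9.58 ± 0.073 in control ovaries. Mgst3 averaged 10.18 ± 0.21 in Uba3 cKO and 10.23 ± 0.18 in control ovaries, and Gsta3, the lowest gene of the set, 4.98 ± 0.12 in Uba3 cKO and 4.93 ± 0.11 in control ovaries. Transcripts of Gstm1, Gstp1, Gpx4 and Sod1 have a copy elsewhere in GENCODE M21 that matches 50% or more of their length at 95% identity or higher, among them Gstp2 and the pseudogene Gm8566 of Sod1. How reads shared by such copies were counted is not given in the sources used here, so the levels of these 4 genes are uncertain.

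The glutathione peroxidases of the set were 4 genes, and the mean of each was lower in Uba3 cKO ovaries, though 0 were called. Outside the set, the log2 difference was 0.34 for the peroxidase Gpx6 and -0.09 for Gpx7. Gpx3, the secreted peroxidase, was at 12.96, 12.18, 13.10, 11.97 and 12.49 in Uba3 cKO replicates 1 to 5, against 12.85, 12.84, 13.64, 12.72 and 12.89 in control replicates 1 to 5. Uba3 cKO replicates 2, 4 and 5 were below every control library, while replicates 1 and 3 were above all but control replicate 3. The means were 12.54 ± 0.49 in Uba3 cKO and 12.99 ± 0.37 in control ovaries (SD, n = 5 each). The log2 difference of -0.45 (standard error 0.22, 95% interval from -0.93 to 0.03) had the smallest p of the 40 genes (unadjusted p = 0.0656, adjusted p = 1 by limma). Leaving out 1 library at a time gave differences between -0.59, without Uba3 cKO replicate 3, and -0.28, without control replicate 3.

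Gpx3 also varied more than nearly all genes of the ovary. Its SD over the 10 libraries was 0.47, larger than that of 99.5% of the 9207 tested genes at a mean level of 8 or more, and its lowest and highest libraries differed 3.19-fold. Over the libraries its level had an r of -0.80 with the length slope (permutation p = 0.00375, adjusted p = 0.109; rho -0.72, permutation p = 0.0241, adjusted p = 0.308), and r was -0.65 without Uba3 cKO replicate 1 and control replicate 3. Its r with the granulosa markers was -0.71 (permutation p = 0.0198, adjusted p = 0.265; rho -0.77, permutation p = 0.0130, adjusted p = 0.279), and -0.67 without the same 2 libraries. Neither passed the correction over the family. When the length slope was added to the model, which was decided after the data had been seen, the difference of Gpx3 was -0.34 (unadjusted p = 0.0224, adjusted p = 1 by limma). The part of the length slope in the spread of Gpx3 was not tested beyond this.

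Gpx1, the cytosolic peroxidase, was at 7.76, 7.64, 7.78, 7.36 and 8.0 in Uba3 cKO replicates 1 to 5, against 7.62, 7.55, 8.42, 7.87 and 7.93 in control replicates 1 to 5. Control replicate 3 was the highest and Uba3 cKO replicate 4 the lowest, a 2.08-fold range. Its log2 difference of -0.17 (standard error 0.16) was -0.04 without control replicate 3 and -0.25 without control replicate 2. No gene span of GENCODE M21 overlaps that of Gpx1, but the annotation used for counting is not given in the sources used here. Whether a gene model there shares its reads could not be checked, so the level, the difference and the place of Gpx1 among the genes are uncertain. Gpx4, which reduces peroxides within membrane lipids, averaged 12.35 ± 0.12 in Uba3 cKO and 12.44 ± 0.26 in control ovaries (SD, n = 5 each), and its difference of -0.09 was 0.01 without control replicate 3 and -0.15 without control replicate 1. Gpx8, an enzyme of the endoplasmic reticulum, averaged 9.38 ± 0.16 in Uba3 cKO and 9.43 ± 0.093 in control ovaries. Its difference of -0.05 was 0.0081 without Uba3 cKO replicate 2 and -0.08 without Uba3 cKO replicate 3. Gpx4 followed the length slope with r = -0.94 (permutation p = 0.00041, adjusted p = 0.0422; rho -0.88, permutation p = 0.00175, adjusted p = 0.192), and r was -0.79 without Uba3 cKO replicate 1 and control replicate 3.

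Thioredoxins and their reductases had close levels in the groups. Txnrd1, the cytosolic reductase, was at 11.38, 11.59, 11.53, 11.65 and 11.63 in Uba3 cKO replicates 1 to 5, against 11.58, 11.48, 11.47, 11.50 and 11.57 in control replicates 1 to 5. Uba3 cKO replicates 2, 4 and 5 were above every control library and replicate 1 was below all of them. The log2 difference was 0.04 (standard error 0.062), which bounds the fold between 0.934 and 1.13. Txn1, its cytosolic substrate, was at 11.60, 11.30, 11.60, 11.19 and 11.65 in Uba3 cKO replicates 1 to 5, against 11.52, 11.37, 11.70, 11.57 and 11.45 in control replicates 1 to 5. Its 2 lowest values were those of Uba3 cKO replicates 2 and 4.

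The mitochondrial pair stood at 10.96 ± 0.081 in Uba3 cKO and 11.00 ± 0.11 in control ovaries (SD, n = 5 each) for Txn2 and at 8.76 ± 0.078 in Uba3 cKO and 8.77 ± 0.12 in control ovaries for Txnrd2. Txn2 had an r of -0.90 with the length slope (permutation p = 0.00015, adjusted p = 0.0272; rho -0.92, permutation p = 0.00059, adjusted p = 0.189), and -0.83 without Uba3 cKO replicate 1 and control replicate 3. Mgst3, a transferase, was the third gene past the correction with the length slope, with an r of -0.87 (permutation p = 0.00053, adjusted p = 0.0422; rho -0.70, permutation p = 0.0313, adjusted p = 0.312), and -0.63 without the same 2 libraries. Of the 40 genes, 31 had a negative and 9 a positive r with the length slope, and the same count was not made over all genes tested.

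Peroxiredoxins, which reduce hydrogen peroxide with thioredoxin, had narrow intervals. The 95% intervals of all 6 lay within 0.25 log2 units of 0. Prdx1, the most abundant of them before correction for length, was at 12.98, 12.77, 12.84, 12.84 and 12.92 in Uba3 cKO replicates 1 to 5, against 12.82, 12.80, 12.89, 13.02 and 12.88 in control replicates 1 to 5, a log2 difference of -0.01 (standard error 0.065). Prdx4, of the endoplasmic reticulum, was at 11.39, 11.15, 11.34, 11.14 and 11.41 in Uba3 cKO replicates 1 to 5, against 11.22, 11.09, 11.14, 11.37 and 11.23 in control replicates 1 to 5. Its Uba3 cKO values fell into a high set (replicates 1, 3 and 5) and a low set (replicates 2 and 4), and the log2 difference was 0.07 (standard error 0.074).

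Prdx6, which uses glutathione instead of thioredoxin, was at 11.58, 11.49, 11.62, 11.53 and 11.52 in Uba3 cKO replicates 1 to 5, against 11.53, 11.64, 11.67, 11.59 and 11.54 in control replicates 1 to 5. Prdx5 was at 10.29, 10.19, 10.25, 10.04 and 10.29 in Uba3 cKO replicates 1 to 5, against 10.26, 10.13, 10.49, 10.24 and 10.10 in control replicates 1 to 5. The groups of both genes overlapped, and Prdx6 and the mitochondrial Prdx3 had SDs over the 10 libraries of 0.059 and 0.060, smaller than those of all but 3.62% and 3.89% of tested genes at a mean level of 8 or more. Prdx3 averaged 10.74 ± 0.057 in Uba3 cKO and 10.74 ± 0.069 in control ovaries (SD, n = 5 each), and the cytosolic Prdx2 12.57 ± 0.093 in Uba3 cKO and 12.64 ± 0.13 in control ovaries.

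Superoxide dismutases turn superoxide into hydrogen peroxide, which catalase breaks down. Sod1, the cytosolic dismutase, was at 12.28, 12.06, 12.31, 12.04 and 12.32 in Uba3 cKO replicates 1 to 5, against 12.19, 12.17, 12.60, 12.18 and 12.17 in control replicates 1 to 5. Control replicate 3 stood above all other libraries, and the log2 difference of -0.06 (standard error 0.095) was 0.03 without it. Leaving out any other library gave values between -0.09 and -0.02. Cat was at 10.21, 10.20, 10.25, 10.20 and 10.40 in Uba3 cKO replicates 1 to 5, against 10.31, 10, 10.10, 10.21 and 10.57 in control replicates 1 to 5. The control values enclosed all Uba3 cKO values. Sod2, the mitochondrial dismutase, averaged 10.60 ± 0.0080 in Uba3 cKO and 10.56 ± 0.085 in control ovaries (SD, n = 5 each).

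Short transcripts of the set moved together in control replicate 3. That library held the highest value of 20 of the 40 genes, and the lowest of 2. The same counts were not made over all genes tested, so they do not mark the set off from other genes. The median deviation from a gene's own mean was 0.21 log2 units there for the 19 genes with transcripts under 1500 bases and 0.10 for the 21 longer ones. In Uba3 cKO replicate 4, which had the highest length slope, the median deviations were -0.14 and -0.04, and the library held the lowest value of 10 genes. In the other 8 libraries the median deviation of the short transcripts lay between -0.06 and 0.08. The part of the length slope in these values was not tested.

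**Figure D4:**
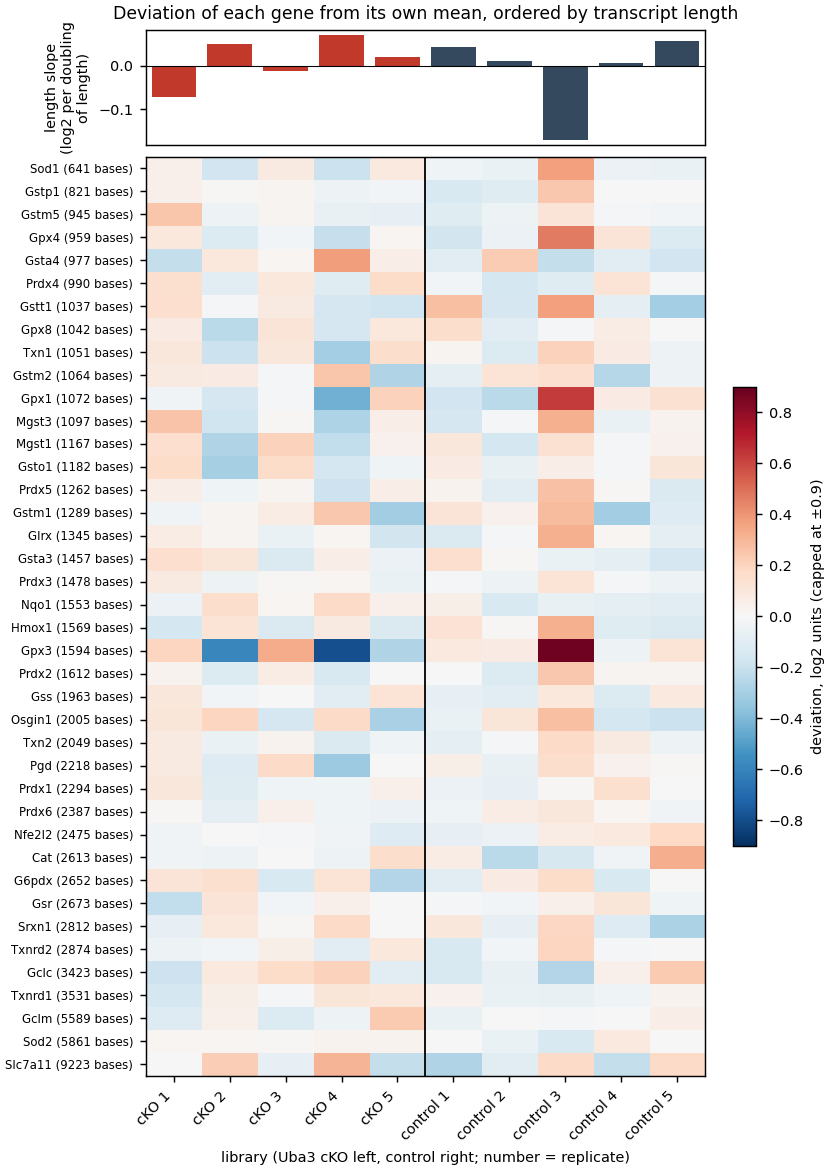
Deviation of each gene from its own mean over the 10 libraries in log2 units (colour, capped), with libraries as columns, Uba3 cKO left of control, and genes ordered from the shortest transcript at the top to the longest at the bottom. The bars above give each library's slope on transcript length. Control replicate 3, at a slope of -0.17, is red in most of the upper rows, and Gpx3 has the strongest colours.

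Corrected for transcript length, the 40 genes spanned 354-fold on the deposited scale. The transform of that scale is not named and compression of low genes was not tested, so the fold is uncertain. Per kilobase of the principal transcript, mean log2 levels over the 10 libraries were 12.87 for Sod1, 12.45 for Gpx4, 12.09 for Gpx3, 11.91 for Prdx2 and 11.68 for Prdx1. At the low end stood Osgin1 at 5.01, Nqo1 at 4.93, Srxn1 at 4.79, Slc7a11 at 4.78 and Gsta3 at 4.41. The median was 9.43. Of 39 neighbouring pairs in this order, 15 differed by more than their combined SD over the libraries, and 24 did not, among them Gpx4 and Gpx3, Gpx3 and Prdx2, Nqo1 and Srxn1, and Srxn1 and Slc7a11. The widest step, of 2.24 log2 units, lay between Txnrd2 at 7.24 and Osgin1. Osgin1, Nqo1, Srxn1 and Slc7a11, whose induction is commonly used to read NRF2 activity, were thus 4 of the 5 lowest genes per kilobase. The place of Slc7a11 depends on its transcript of 9223 bases. Before correction for length its mean was 7.98, above that of Gpx1 at 7.79. Other well-known targets stood above that step, with Hmox1 at 7.44, Gclm at 7.61, Gclc at 8.85 and Txnrd1 at 9.72.

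**Figure D5:**
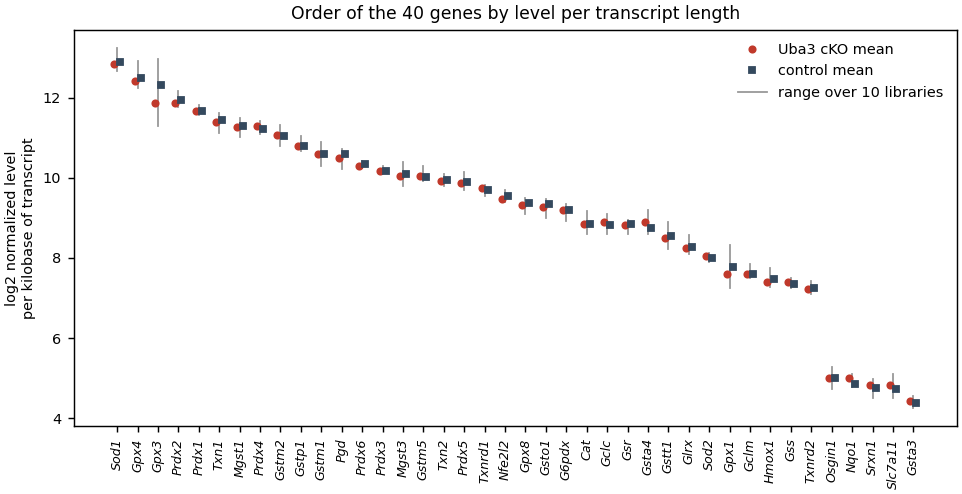
Mean log2 level per kilobase of transcript (y axis) in Uba3 cKO ovaries (circles) and control ovaries (squares) for the 40 genes from highest to lowest, with the range over 10 libraries as a line. Levels run from 12.87 for Sod1 to 4.41 for Gsta3, with a step between Txnrd2 and Osgin1 wider than any other.

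Genes that control NRF2 were measured beside its targets. Of 22, 12 had the higher and 10 the lower mean in Uba3 cKO ovaries, and 0 were called by limma. Keap1, the sensor that binds NRF2, was at 10.32, 10.29, 10.39, 10.30 and 10.48 in Uba3 cKO replicates 1 to 5, against 10.33, 10.29, 10.18, 10.11 and 10.25 in control replicates 1 to 5. Uba3 cKO replicates 3 and 5 were above every control library, and the log2 difference was 0.12 (standard error 0.062, unadjusted p = 0.0685, adjusted p = 1). Cul3, the scaffold of the ligase, averaged 11.21 ± 0.13 in Uba3 cKO and 11.28 ± 0.20 in control ovaries (SD, n = 5 each). Maff, a small MAF partner, had the smallest p of the list, with 7.01 ± 0.14 in Uba3 cKO and 7.34 ± 0.22 in control ovaries and a log2 difference of -0.32 (standard error 0.11, unadjusted p = 0.0136, adjusted p = 1). Bach2, a repressor that competes for the same elements, averaged 7.11 ± 0.11 in Uba3 cKO and 7.29 ± 0.11 in control ovaries.

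Other genes of the same pathways gave 0 calls as well. Of 23 further NRF2 targets 11 had the higher and 12 the lower mean in Uba3 cKO ovaries (median difference -0.0017), with the smallest p for Ftl1, the ferritin light chain, at 12.62 ± 0.085 in Uba3 cKO and 12.81 ± 0.31 in control ovaries (SD, n = 5 each), and Ephx1, an epoxide hydrolase, at 8.96 ± 0.20 in Uba3 cKO and 9.13 ± 0.27 in control ovaries. Of 26 other glutathione genes listed, 23 were matched in the table and tested, and 13 of these were higher in mean and 10 lower (median 0.043). They held Chac1, which breaks down glutathione, with a difference of -0.20 (standard error 0.080, unadjusted p = 0.0279), and the peroxidase Gpx6 with 0.34 (standard error 0.14, unadjusted p = 0.0315), both with an adjusted p of 1 by limma. Of 19 other thioredoxin, glutaredoxin and methionine sulfoxide genes 7 were higher in mean and 12 lower (median -0.022), with the thioredoxin-binding protein Txnip at 13.22 ± 0.20 in Uba3 cKO and 13.43 ± 0.25 in control ovaries and the selenoprotein Selenow at 10.63 ± 0.16 in Uba3 cKO and 10.78 ± 0.30 in control ovaries.

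Selenoprotein synthesis bears on the glutathione peroxidases and thioredoxin reductases, most of which carry selenocysteine. Of 8 genes 2 were higher and 6 lower in mean in Uba3 cKO ovaries (median -0.028), with Sephs2, which makes selenophosphate, at 8.94 ± 0.11 in Uba3 cKO and 9.03 ± 0.14 in control ovaries (SD, n = 5 each) and Scly, which releases selenium from selenocysteine, at 5.58 ± 0.089 in Uba3 cKO and 5.67 ± 0.12 in control ovaries. Of 12 genes for enzymes that produce oxidants, 8 passed the filter, 3 with the higher and 5 with the lower mean (median -0.023). Cybb, the catalytic subunit of the phagocyte oxidase, averaged 4.81 ± 0.11 in Uba3 cKO and 4.72 ± 0.11 in control ovaries.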

How the data were processed

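RNA-seq libraries of 10 whole mouse ovaries, 5 labelled Uba3 cKO and 5 labelled control, were made with a TruSeq kit and read on a NovaSeq, per the labels' protocols. The notes name fastp, STAR, featureCounts, DESeq2 and GRCm39, per the submitters' processing notes, without versions or roles. The authors deposited 1 log2 value per gene and library for 22891 genes, from -0.21 to 20.19. The transform is not named and the depth is unknown, so no count test applied. Symbols for 22188 identifiers and transcript lengths came from GENCODE M21 (GRCm38). Strand-aware counting is not given in the sources used here, and 13 of the 40 genes overlap a gene on the opposite strand.

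Genes whose mean reached 3.32 (10 when unlogged) entered limma 3.58.1 (R 4.3.3), with a trended prior variance, no covariate and Benjamini-Hochberg adjustment at 0.05. The fit was checked on simulated data, with 200 genes shifted in each of 20 runs. Of genes shifted by 0.5 log2 units 65.8% were called, and of those shifted by 1 log2 unit 97.3%. A median of 2 other genes were called per run, and at most 42. The 200 genes were shifted together and on the deposited scale. Adjustment is stricter where fewer genes change, so these rates do not give the chance of calling a lone changed gene. Uba3 was compared with an exact permutation test, whose smallest p with 5 against 5 is 0.00794. Relations across libraries used 100000 resamples. The members and lists were chosen with earlier results of these data known, and 220 of 226 list genes were found. The text gives values in every library for Nfe2l2, 7 well-known targets, the 6 other members with the smallest p, and in each role the highest and the most variable member, with Keap1 and Uba3. Cul3 and the 2 genes with the smallest p of each other list are given by means or differences. A gene that this rule names is not reported here. Library pairs with identical values numbered 0. The alternatives were other filters, scalings, weights, covariates, a replicate block and leaving out each library.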

Additional observations from a re-analysis of the deposited data

Results flagged for a closer look

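In 6 of 80 groups of 5 libraries (40 genes in 2 groups) the highest library lay farther from the next than Dixon's 95% limit allows. Chance gives about 1 in 20 such groups. Control replicate 3 was the library in 3 of them, with Sod1 at 12.60, Gpx3 at 13.64 and Prdx3 at 10.86. The others were Gsta4 at 9.01 in control replicate 2, Gstm5 at 10.21 in Uba3 cKO replicate 1 and Cat at 10.40 in Uba3 cKO replicate 5. Control replicate 3 also had the steepest slope on transcript length, -0.17, and the part of this in the 3 genes was not tested.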

How the results depend on the processing

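Under 19 alternatives, 18 planned and 1 chosen after seeing the data, 0 of the 40 genes were called, with adjusted p-values between 0.999 and 1. The median difference of the 40 genes, -0.0094, turned sign with library quality weights (0.011) and without control replicate 3 (0.023). Without that library 10 genes had the opposite sign. Without 1 library the median ran from -0.034 to 0.023. With the length slope added to the model, 1 gene outside the set was called. The mean of Gpx3 was lower in Uba3 cKO ovaries in 19 of 19 alternatives, from -0.59 to -0.28, with an unadjusted p under 0.05 in 4 of them and 0 adjusted calls. The median of the NRF2 control genes, 0.0042, was -0.028 with library quality weights and -0.028 without control replicate 3. The median of the oxidant sources, -0.023, was 0.021 without Uba3 cKO replicate 2 and 0.011 without control replicate 5. Over all alternatives the medians ran from -0.028 to 0.019 for NRF2 control genes, -0.033 to 0.0079 for other NRF2 targets, -0.053 to 0.021 for oxidant sources, -0.04 to -0.0068 for other thioredoxin genes and -0.06 to -0.021 for selenoprotein synthesis. For other glutathione genes they ran from -0.045, without control replicate 4, to 0.082, with -0.0098 under the stricter filter and 0.0019 without Uba3 cKO replicate 3. The causes were not tested. Same-numbered libraries had correlations of their deviations from -0.27 to 0.28, over 0.1 in 2 of 5 pairs. Of 10 libraries, 2 correlated best with their own number. The labels do not say whether the numbers pair the ovaries, and such correlations cannot decide it, since unpaired differences between libraries also enter them. A replicate block gave 0 calls over all genes and 0 in the set. Its unadjusted p for Gpx3 was 0.0033. Depth is unknown, and compression of low genes was not tested.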
